A study of Mus musculus with 16 samples.

Results

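AP-1 and immediate early genes were taken as 10 listed symbols, namely *Fos*, *Fosb*, *Fosl1*, *Fosl2*, *Jun*, *Junb*, *Jund*, *Egr1*, *Ier2* and *Ier3*. The symbols were mapped from gene identifiers, and 10 of 10 were found among 20622 genes with cytoplasmic total RNA counts and 15235 genes with ribosome-protected fragment (RPF) counts. All 10 passed the filter on low counts in both kinds of library. The rule that names the members uses no measured value, although the list was drawn up with earlier results of these data known.

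AP-1 is a dimeric transcription factor made of a JUN protein with a FOS protein or another JUN protein. FOS proteins do not form stable dimers with each other, whereas JUN proteins do. The genes for several of these proteins, together with *Egr1*, *Ier2* and *Ier3*, are immediate early genes, whose transcription starts within minutes of growth factor or stress signalling without new protein synthesis. ERK acts through ELK factors and SRF on *Fos* and *Egr1*, and JNK phosphorylates JUN. Many of these mRNAs are short-lived, carry AU-rich elements and are shortened at their poly(A) tail by deadenylases such as the CCR4-NOT complex, with which the helicase eIF4A2 associates.

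Footprints and total RNA were compared between 2 mouse lung tumour cell lines, KM_NTC and KM_4A2cr, to ask which mRNAs changed in abundance or ribosome occupancy after *Eif4a2* was targeted. Both lines derive from tumours of a male mouse at clinical endpoint carrying *Rosa26* LSL-MYC/LSL-MYC alleles, induced with an adenovirus whose CRE is driven by the surfactant protein C (SPC) promoter of alveolar type II cells, and both carry a puromycin-selected lentiviral CRISPR vector. KM_NTC has a non-targeting guide, while KM_4A2cr has a guide against *Eif4a2* and is a pool of 4 clones that lacked the protein on Western blots. Cells were untreated and were harvested near confluence in 4 independent experiments on different days, and an RPF and a total RNA library were made from each lysate, giving 16 libraries. Each line was established once, so the effect of the guide and other differences between the lines cannot be told apart.

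Libraries held 4512403 to 9621848 RPF counts and 5350920 to 9312624 total RNA counts. Values are CPM, counts scaled to a common library size after TMM normalisation within each kind of library. *Eif4a2* itself had lower RPF CPM in KM_4A2cr in 4 of 4 replicate pairs (log2 fold change -0.49, SE 0.15, edgeR adjusted p = 0.0941), and its total RNA was lower in 4 of 4 pairs without passing the threshold (log2 fold change -0.18, SE 0.13, edgeR adjusted p = 0.504). Of 8 epithelial markers 0 were absent, and their summed RPF CPM was 9280 to 13900 in KM_NTC and 11100 to 15100 in KM_4A2cr. The summed RPF CPM of 9 alveolar type II markers was 85.7 to 191, mostly from *Abca3* and *Etv5*, and the defining *Sftpc* and *Sftpb* had 0 total RNA counts in all 8 libraries. Fibroblast and endothelial markers summed to at most 23.7 and 17.8 RPF CPM, both in replicate 4 of KM_NTC. Endothelial sums were 17.8 and 12.4 in replicate 4 of KM_NTC and KM_4A2cr, against 1.81 to 4.25 in the other 6 libraries. Fibroblast sums in replicate 4 were 23.7 against 4.16 to 7.12 in KM_NTC, and 15.6 against 7.37 to 14.4 in KM_4A2cr. In such bulk lysates fewer cells of a type and less RNA per cell cannot be told apart. Replicate 4 stood apart in both lines. The summed RPF CPM of 7 immune markers, nearly all of it from *Cd68*, was 780 and 696 in replicate 4 of KM_NTC and KM_4A2cr against 74.7 to 128 in the other 6 libraries, while *Lyz2* and *Adgre1* were at 0 in total RNA. Replicate 4 also had the fewest RPF counts in each line. The part of these features in the results below was not tested, and results that rest on replicate 4 are given with and without it.

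The promoters of *Fos*, *Fosb* and *Junb* are shown, chosen by total RNA. These are 3 of the 4 members whose total RNA CPM was higher in KM_4A2cr in all 4 replicate pairs. Sequences are the 250 bases before the RefSeq gene start in GRCm38.p6, a build other than that of the files, on the strand of the gene, and 7 of the 10 members matched an entry. Capitals mark exact matches to TGACG, the core of the cAMP response element bound by CREB and ATF proteins, to TATAAA, the TATA box, and to GCGGGGGCG, a site bound by EGR1. The windows are chr12:85473640-85473889 on the plus strand for *Fos*, chr7:19310046-19310295 on the minus strand for *Fosb* and chr8:84978749-84978998 on the minus strand for *Junb*.
Fos: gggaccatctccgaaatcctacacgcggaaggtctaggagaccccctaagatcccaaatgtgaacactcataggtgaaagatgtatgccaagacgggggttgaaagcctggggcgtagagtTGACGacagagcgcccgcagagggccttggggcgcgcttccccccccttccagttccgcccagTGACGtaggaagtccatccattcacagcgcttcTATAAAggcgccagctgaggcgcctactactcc
Fosb: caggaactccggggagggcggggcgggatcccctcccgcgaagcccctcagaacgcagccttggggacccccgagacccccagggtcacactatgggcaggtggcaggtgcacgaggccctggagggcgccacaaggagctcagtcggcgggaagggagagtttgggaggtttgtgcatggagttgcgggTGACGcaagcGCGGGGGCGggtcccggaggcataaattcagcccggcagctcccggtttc
Junb: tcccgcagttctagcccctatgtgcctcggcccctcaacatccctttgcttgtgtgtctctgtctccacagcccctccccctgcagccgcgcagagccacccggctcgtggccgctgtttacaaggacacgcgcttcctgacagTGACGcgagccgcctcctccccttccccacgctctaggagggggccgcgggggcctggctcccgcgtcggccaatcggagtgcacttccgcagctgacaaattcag

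TGACG, searched on both strands, was present in 3 of the 7 member windows and in 17.8% of 32851 windows of the same length. *Fos* held it at -129 to -125 and -66 to -62, counted backwards from the base before the gene start, *Fosb* at -60 to -56 and *Junb* at -106 to -102. TATAAA was present in *Fos* alone among the 7 windows, against 12.4% of all windows, and GCGGGGGCG in *Fosb* and *Fosl2*, against 2.57% of all windows. The AP-1 site TGACTCA was found in 0 of the 7 windows and in 4.46% of all windows, and the CArG box bound by SRF in 0 of 7 and in 1.47%. Bases further upstream were not searched, and *Fosl1*, *Egr1* and *Ier2* had no entry. A motif not found here can therefore still lie elsewhere at the same gene. None of the searched letters of one motif fall inside a match of another in these windows. These matches are descriptions of letters and not evidence of binding.

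In KM_NTC cells the abundance of these mRNAs per transcript length spanned a wide range. *Ier3*, which encodes a regulator of survival signalling, had the highest level, 507 ± 105 TPM (length-scaled transcript abundance, mean ± SD, n = 4), and ranked 262 of 16557 genes. *Junb* at 97.7 ± 29.3, *Jund* at 77.3 ± 13.2 and *Ier2* at 56.0 ± 11.7 TPM followed, and mean ± SD ranges of neighbours in that order overlapped. *Fosl1* at 21.4 ± 4.33, *Jun* at 18.7 ± 8.99, *Egr1* at 14.0 ± 9.37, *Fos* at 13.9 ± 9.85 and *Fosl2* at 9.41 ± 2.36 TPM formed a lower group in which neighbours also overlapped. *Fosb* was the scarcest at 2.18 ± 1.39 TPM. Mean ± SD ranges of neighbours were separate only between *Ier3* and *Junb*, *Ier2* and *Fosl1*, and *Fosl2* and *Fosb*. In KM_4A2cr the means ran from 2.86 ± 1.73 TPM for *Fosb* to 534 ± 196 TPM for *Ier3*.

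The family did not move as a block. Footprints of *Fos*, *Fosb* and *Jund* were higher in KM_4A2cr, by 1.51-fold, 2.24-fold and 1.93-fold, and total RNA of *Fos* was higher by 1.66-fold. *Jund* gained footprints beyond its mRNA and *Junb* had fewer footprints per mRNA, while *Fosl1*, *Fosl2*, *Jun*, *Egr1*, *Ier2* and *Ier3* passed the threshold in none of the 3 comparisons.

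Genes were called at an edgeR adjusted p under 0.1 over all tested genes. In RPFs 3 of 10 members were called, all higher, where 10.3% of 10291 tested genes were called and 6.6% were called higher. In total RNA 1 of 10 members was called, where 6.13% of 10880 genes were. Translational efficiency (TE) here means the RPF difference beyond the total RNA difference, tested as an interaction in 1 edgeR model of the 16 libraries. For TE 2 of 10 members were called, 1 in each direction, where 2.91% of 9989 genes were. The median log2 fold change of the members was 0.02 in RPFs, 0.29 in total RNA and -0.15 in TE, and that of all tested genes was -0.01, 0.01 and -0.02.

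The direction of the difference was the same in all 4 pairs for 4 members in RPFs, for 4 in total RNA and for 4 in TE. The shares among all tested genes were 30.1%, 25.4% and 21.8%. The 4 members in TE include *Fosl2*, for which the lines were nearly level in pair 4. RPF CPM of the 2 lines overlapped for each of the 10 members, and so did total RNA CPM. Ranges without overlap were found in 2.13% of tested genes in RPFs and 1.97% in total RNA. The calls therefore rest on pairing by day. Without the replicate number in the edgeR model 0 genes were called in each of the 3 comparisons, where 365, 362 and 22 genes had an unadjusted p under 0.05, and the adjusted p of *Fos* RPFs was 0.998. DESeq2 with the replicate number called *Fos*, *Fosb* and *Jund* in RPFs, *Fos* in total RNA and *Jund* in TE.

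**Figure D1:**
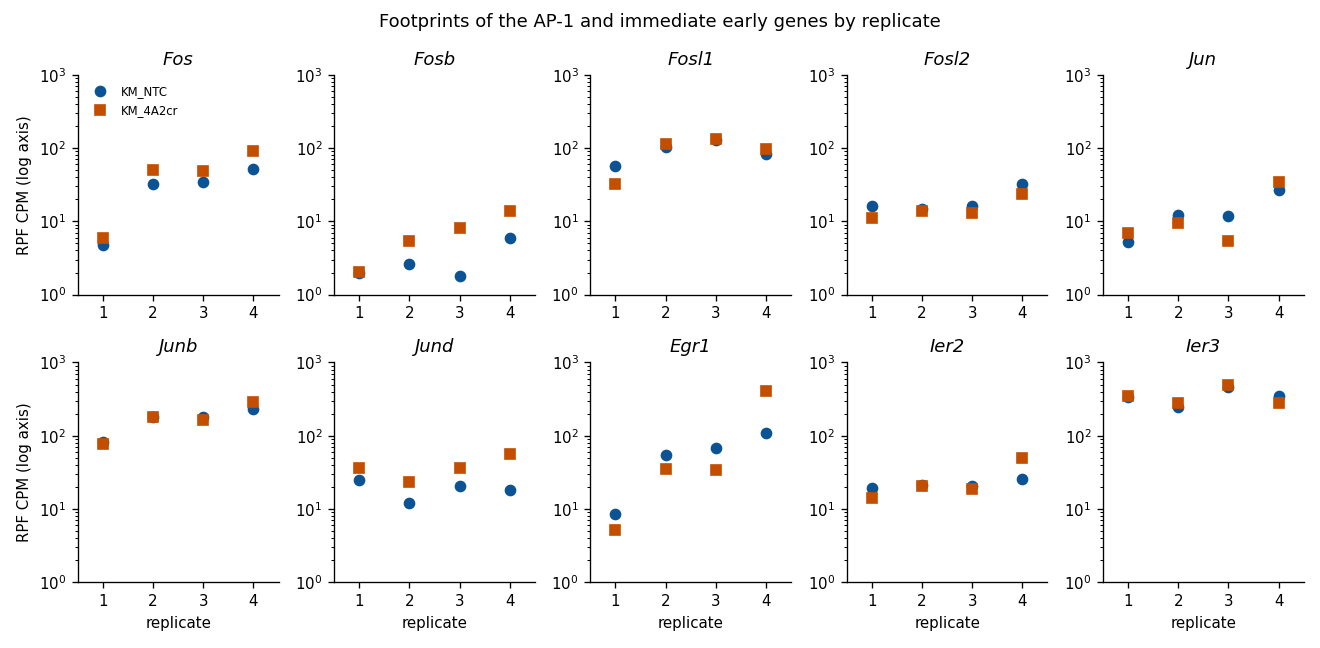
RPF CPM (log axis) of the 10 genes in replicates 1 to 4, with circles for KM_NTC and squares for KM_4A2cr. The *Fos*, *Fosb* and *Jund* squares lie above the circles in 4 of 4 replicates, and *Egr1* runs from 5.19 to 408 CPM within KM_4A2cr.

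Among the FOS proteins, *Fos* encodes the founding member and is the best known immediate early gene. Its RPF CPM in replicates 1 to 4 was 4.80, 32.6, 34.2 and 51.8 in KM_NTC and 5.92, 50.4, 49.4 and 91.3 in KM_4A2cr. Both lines had their lowest value in replicate 1 and their highest in replicate 4, and within each pair KM_4A2cr was higher. The log2 fold change was 0.60 (SE 0.14, edgeR adjusted p = 0.0446), and the call was lost without replicate 1 (adjusted p = 0.106), 2 (0.277) or 3 (0.232), with log2 fold changes of 0.58 to 0.66.

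*Fos* total RNA CPM was 3.23, 11.9, 14.3 and 36.2 in KM_NTC and 3.76, 23.5, 23.7 and 58.8 in KM_4A2cr. Replicate 1 was again the lowest and replicate 4 the highest in both lines, with a ratio of highest to lowest replicate of 11.2 and 15.6 in the 2 lines. The log2 fold change was 0.73 (SE 0.15, edgeR adjusted p = 0.0318), and the call was lost without replicate 2 (adjusted p = 0.273) or 3 (0.254). Footprints and mRNA of *Fos* thus shifted by similar amounts, with a TE log2 fold change of -0.12 (95% interval -0.41 to 0.18, edgeR adjusted p = 0.760).

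*Fosb* encodes a FOS protein that is also induced by serum. Its RPF CPM was 1.99, 2.58, 1.78 and 5.87 in KM_NTC and 2.05, 5.41, 8.00 and 14.0 in KM_4A2cr, from 89 and 170 counts in all. The lines were level in replicate 1 and apart in the other 3. Between the lines the log2 fold change was 1.16 (SE 0.30, edgeR adjusted p = 0.0633), and the call was lost without replicate 2 (adjusted p = 0.229) or 3 (0.304). These counts come from a 1090-nucleotide transcript, the shortest of 6 *Fosb* isoforms in the total RNA tables, and that isoform had 0 to 4 expected counts in a total RNA library. Summed over isoforms, *Fosb* total RNA CPM was 1.53 to 8.24 in KM_NTC and 2.29 to 12.4 in KM_4A2cr and higher in 4 of 4 pairs, without passing the threshold (log2 fold change 0.59, SE 0.21, edgeR adjusted p = 0.159). In TPM replicate 1 went the other way, with 1.18 in KM_NTC and 1.11 in KM_4A2cr. The other 9 members have 1 isoform each in these tables.

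*Fosl1* and *Fosl2* encode the FOS-related antigens, which lack the transactivation domain of FOS and accumulate later. *Fosl1* RPF CPM was 57.5, 104, 129 and 83.9 in KM_NTC and 31.9, 114, 134 and 96.4 in KM_4A2cr. KM_4A2cr was lower in replicate 1 and slightly higher in the other 3, so that the log2 fold change was -0.11 with all replicates (95% interval -0.52 to 0.31, edgeR adjusted p = 0.763) and 0.13 without replicate 1. Its total RNA CPM was 16.4 to 24.9 in KM_NTC and 13.9 to 37.9 in KM_4A2cr. Footprints per mRNA were lower in KM_4A2cr in 4 of 4 pairs, with a TE log2 fold change of -0.40 (SE 0.12, edgeR adjusted p = 0.108). This value passed the threshold without replicate 4 (-0.46, adjusted p = 0.0348) and with no filter on low counts (-0.39, adjusted p = 0.0954).

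*Fosl2* was the only member with lower footprints in all 4 pairs. RPF CPM of *Fosl2* was 16.2, 14.8, 16.0 and 31.9 in KM_NTC and 11.0, 14.0, 12.8 and 23.4 in KM_4A2cr. The log2 fold change of -0.35 (SE 0.14, edgeR adjusted p = 0.181) did not pass the threshold, except with library size as the only scaling (-0.48, adjusted p = 0.0892), which moves the median of all genes by -0.13. *Fosl2* total RNA CPM was 25.1 to 57.3 in KM_NTC and 27.8 to 42.2 in KM_4A2cr, with a log2 fold change of -0.05 (95% interval -0.36 to 0.26, edgeR adjusted p = 0.882). Its TE log2 fold change was -0.30 (SE 0.14, edgeR adjusted p = 0.349). In replicate 4 its ratio of RPF CPM to total RNA CPM was 0.558 in both lines.

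**Figure D2:**
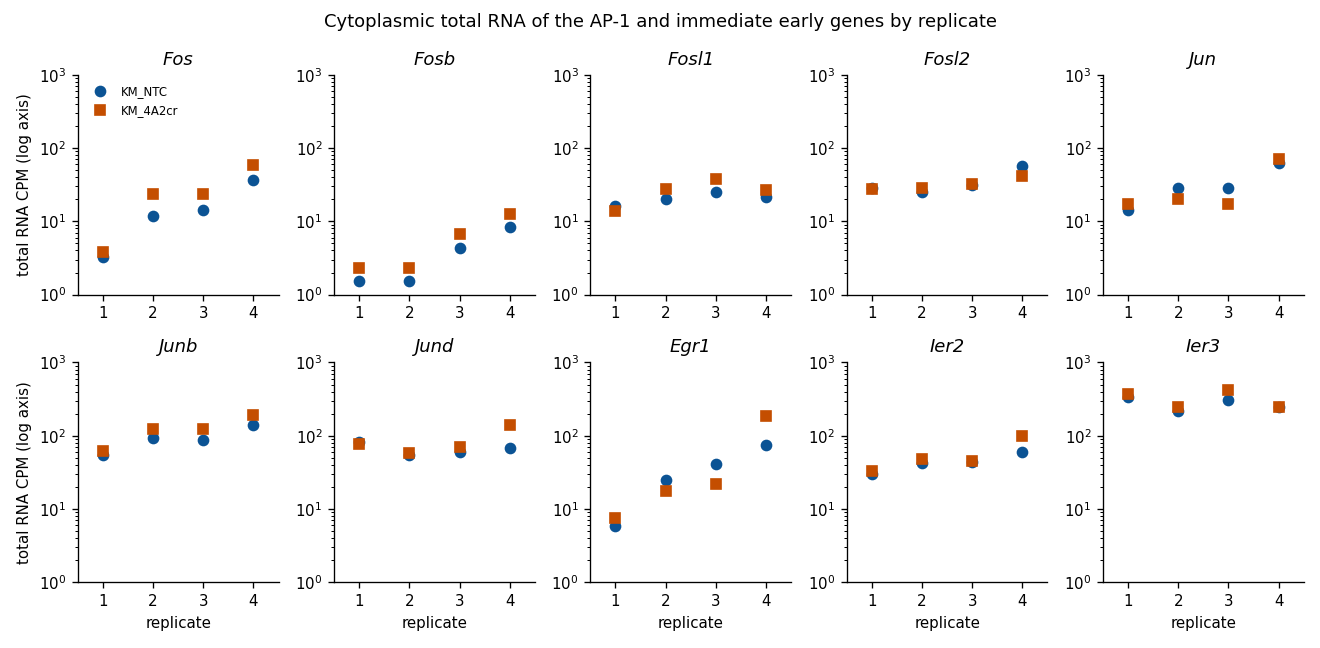
Total RNA CPM (log axis) of the 10 genes in replicates 1 to 4, with circles for KM_NTC and squares for KM_4A2cr. *Fos*, *Fosb*, *Junb* and *Ier2* were higher in KM_4A2cr in 4 of 4 replicates, and *Egr1* reached 186 CPM in KM_4A2cr replicate 4.

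Among the JUN proteins, *Jund* encodes the member with the steadiest expression, often described as a restraint on proliferation. RPF CPM of *Jund* was 24.6, 12.2, 20.8 and 18.3 in KM_NTC and 36.0, 23.0, 36.2 and 56.0 in KM_4A2cr. KM_4A2cr was higher on each day, most in replicate 4, and only its lowest value lay within the KM_NTC range. A log2 fold change of 0.95 resulted (SE 0.18, edgeR adjusted p = 0.0228), and the call was lost without replicate 2 (adjusted p = 0.128) or 3 (0.191).

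*Jund* total RNA CPM was 81.3, 54.8, 60.6 and 68.8 in KM_NTC and 76.0, 57.9, 69.9 and 140 in KM_4A2cr. The lines were close in replicates 1 to 3 and apart in replicate 4. With all replicates the log2 fold change was 0.30 (95% interval -0.09 to 0.69, edgeR adjusted p = 0.416). Footprints per mRNA were higher in 4 of 4 pairs, with log2 differences of 0.64, 0.82, 0.59 and 0.58.

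The ratio of *Jund* RPF CPM to total RNA CPM was 0.305, 0.227, 0.346 and 0.268 in KM_NTC and 0.475, 0.400, 0.520 and 0.402 in KM_4A2cr. These ranges did not overlap. *Jund* was 1 of 10 members without overlap, where 2.97% of 9989 genes were. Its TE log2 fold change was 0.67 (SE 0.12, edgeR adjusted p = 0.00543), the steadiest difference between pairs among the called members. The call was kept in 10 of 12 alternative analyses and lost without replicate 1 (0.67, adjusted p = 0.101) and without the replicate term.

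*Junb* encodes a JUN protein with weaker transactivation that is strongly induced by growth factors. Its RPF CPM was 80.9, 182, 180 and 230 in KM_NTC and 78.3, 181, 165 and 288 in KM_4A2cr, level in replicates 1 and 2. The RPF log2 fold change was 0.03 (95% interval -0.26 to 0.33, edgeR adjusted p = 0.899). *Junb* total RNA CPM was 53.9, 93.4, 87.2 and 138 in KM_NTC and 61.5, 123, 123 and 192 in KM_4A2cr, higher in 4 of 4 pairs.

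The total RNA log2 fold change of *Junb* was 0.39 (SE 0.12, edgeR adjusted p = 0.115) and passed the threshold without replicate 4 (0.36, adjusted p = 0.0130). Its ratio of RPF CPM to total RNA CPM was 1.50, 1.95, 2.06 and 1.67 in KM_NTC and 1.27, 1.48, 1.34 and 1.50 in KM_4A2cr, lower in each pair. The TE log2 fold change was -0.36 (SE 0.10, edgeR adjusted p = 0.0846). This call was lost without replicate 1 (adjusted p = 0.324), 2 (0.333) or 3 (0.438), with DESeq2 (0.133) and with library size as the only scaling (0.189). *Jund* and *Junb* therefore lay on opposite sides of 0 in TE in 4 of 4 pairs.

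*Jun* encodes the founding JUN protein. RPF CPM of *Jun* was 5.25, 12.3, 11.9 and 26.4 in KM_NTC and 7.00, 9.59, 5.47 and 34.5 in KM_4A2cr. KM_4A2cr was higher in replicates 1 and 4 and lower in 2 and 3. With all replicates the log2 fold change was -0.14 (95% interval -0.70 to 0.42, edgeR adjusted p = 0.766). *Jun* total RNA CPM was 14.3, 28.6, 28.8 and 63.2 in KM_NTC and 17.3, 19.9, 17.0 and 70.1 in KM_4A2cr, with the same split of days. Its total RNA log2 fold change was -0.21 (SE 0.18, edgeR adjusted p = 0.581) and -0.38 without replicate 4 (adjusted p = 0.0921).

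**Figure D3:**
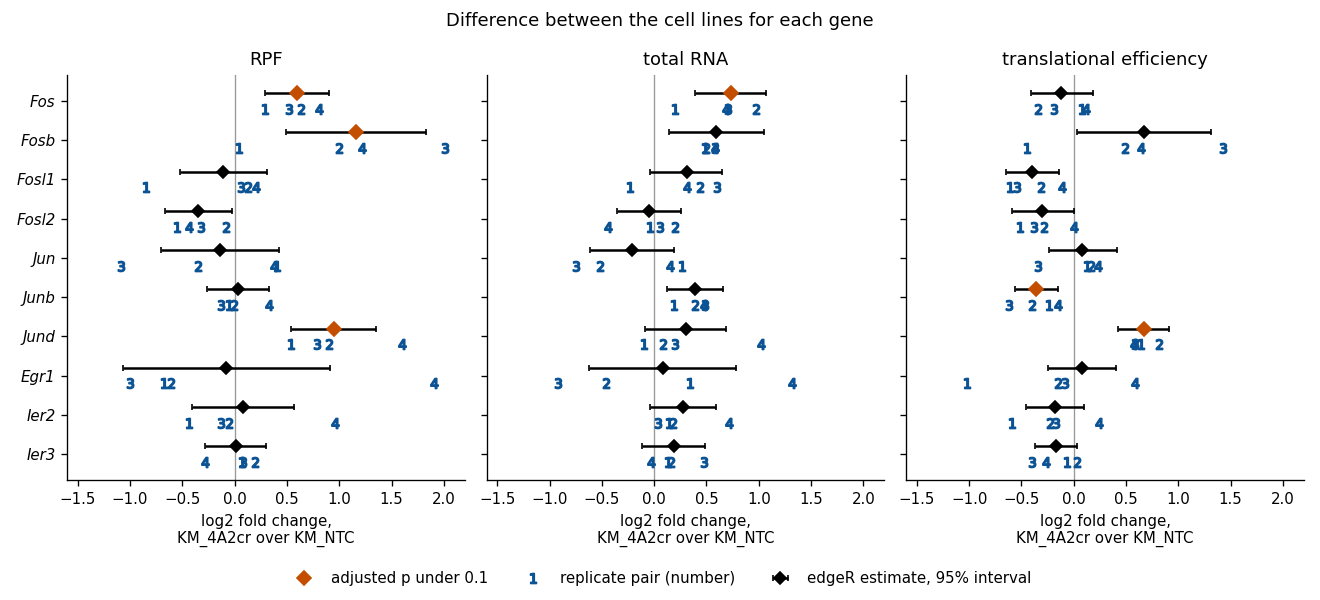
Log2 fold change of KM_4A2cr over KM_NTC for RPFs, total RNA and translational efficiency, with diamonds and 95% intervals from edgeR, orange diamonds at an adjusted p under 0.1, and digits for the 4 replicate pairs. *Egr1* RPFs differ between pairs from -1.0 to 1.91, whereas the *Jund* TE pairs lie between 0.58 and 0.82.

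*Egr1* encodes a zinc finger factor induced through ERK and SRF. RPF CPM of *Egr1* was 8.51, 53.8, 67.9 and 108 in KM_NTC and 5.19, 35.2, 34.0 and 408 in KM_4A2cr. KM_4A2cr was lower in replicates 1, 2 and 3 and higher in replicate 4. The RPF log2 fold change over the 4 pairs was -0.08 with a wide 95% interval, -1.07 to 0.91 (edgeR adjusted p = 0.931), and -0.78 without replicate 4 (SE 0.13, adjusted p = 0.00128).

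*Egr1* total RNA CPM was 5.89, 24.6, 41.4 and 74.5 in KM_NTC and 7.52, 17.8, 21.8 and 186 in KM_4A2cr. It was higher in KM_4A2cr in replicates 1 and 4 and lower in the other two. The log2 fold change was 0.08 (95% interval -0.62 to 0.78, edgeR adjusted p = 0.929) and -0.51 without replicate 4 (adjusted p = 0.0318). The TE log2 fold change was 0.08 (95% interval -0.25 to 0.40, edgeR adjusted p = 0.875), and the pairs went both ways, with log2 differences of -1.02, -0.15, -0.08 and 0.59.

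Leaving out replicate 4 raised the share of called genes in the whole tables to 33.4% in RPFs, 29.8% in total RNA and 6.68% in TE. Of the 10 members, 4 were then called in RPFs, with *Egr1* lower beside *Fos*, *Fosb* and *Jund* higher. In total RNA 5 were called, *Fos*, *Junb* and *Ier3* higher and *Jun* and *Egr1* lower. In TE 3 were called, *Jund* higher and *Junb* and *Fosl1* lower.

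*Ier2* and *Ier3* encode small immediate early proteins outside the AP-1 family. *Ier2* RPF CPM was 19.5, 21.3, 20.5 and 25.4 in KM_NTC and 14.3, 20.7, 18.8 and 49.5 in KM_4A2cr. Values of KM_NTC were nearly level between days, and KM_4A2cr was higher only in replicate 4. The RPF log2 fold change was 0.08 (95% interval -0.41 to 0.57, edgeR adjusted p = 0.853) and -0.20 without replicate 4. *Ier2* total RNA CPM was 30.2 to 59.6 in KM_NTC and 33.4 to 98.2 in KM_4A2cr, higher in 4 of 4 pairs by log2 differences of 0.04 to 0.72 (log2 fold change 0.28, SE 0.14, edgeR adjusted p = 0.345). The direction in replicate 3 depended on the scaling, since *Ier2* TPM there was 56.1 in KM_NTC and 53.5 in KM_4A2cr.

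*Ier3* had the highest footprint CPM of the 10 and the smallest RPF difference. Its RPF CPM was 246 to 462 in KM_NTC and 281 to 487 in KM_4A2cr, with a log2 fold change of 0.01 (95% interval -0.28 to 0.30, edgeR adjusted p = 0.961). *Ier3* total RNA CPM was 220 to 336 and 245 to 426, with a log2 fold change of 0.19 (SE 0.14, edgeR adjusted p = 0.528), and 0.25 without replicate 4 (adjusted p = 0.0708).

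**Figure D4:**
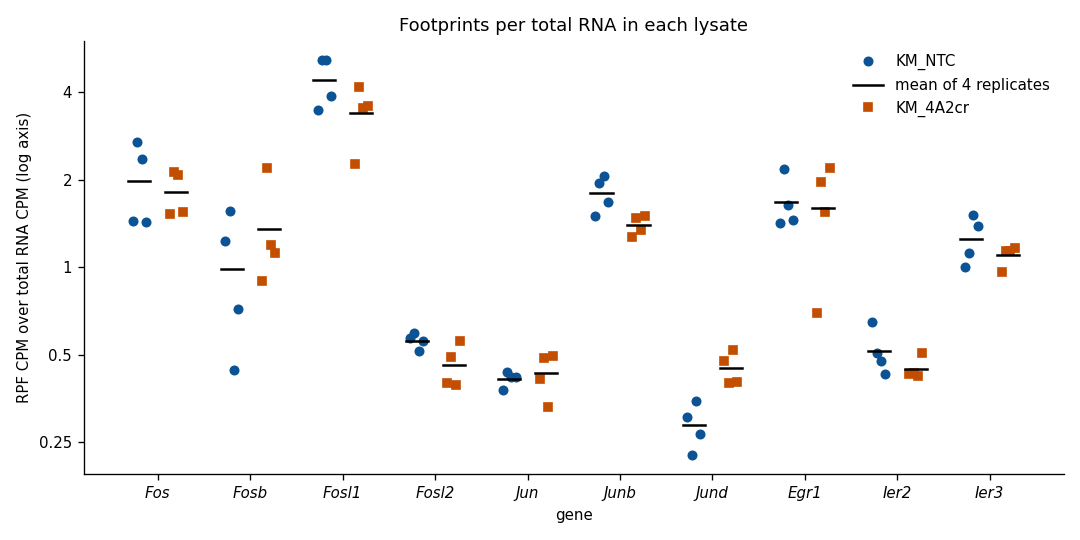
Ratio of RPF CPM to total RNA CPM (log axis) in each lysate, with circles for KM_NTC, squares for KM_4A2cr and bars for the mean of 4 replicates. *Jund* is the gene whose lines do not overlap, at 0.227 to 0.346 in KM_NTC and 0.400 to 0.520 in KM_4A2cr.

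Within a line, several of these genes varied more between days than most genes did. The SD of log2 CPM over the 4 replicates of KM_NTC had a median of 0.58 over the members and 0.42 over all tested genes in RPFs, and of 0.54 and 0.35 in total RNA. For KM_4A2cr the medians were 0.86 and 0.45 in RPFs and 0.67 and 0.43 in total RNA. Between 7 and 9 of the 10 members lay above the median of all tested genes in each of these 4 sets.

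*Egr1* and *Fos* carried the widest spread. The SD of *Egr1* log2 CPM was 1.59 and 2.55 in RPFs of KM_NTC and KM_4A2cr and 1.54 and 1.95 in total RNA, and that of *Fos* was 1.50, 1.70, 1.39 and 1.62. Each of these 8 values was at or above the 99.4th percentile of tested genes. The SD was 0.87 to 1.16 for *Jun* and 0.72 to 1.13 for *Fosb*, which was above *Jun* in both total RNA sets and below it in both RPF sets, and *Ier3*, at 0.28 to 0.41, was below the 50th percentile in all 4 sets.

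Days were ordered alike in most of these genes. Replicate 1 held the lowest value for 6 or 7 of the 10 members in each set, and replicate 4 held the highest for 7 or 8. The same shares over all tested genes were not counted, so this order is not shown to be particular to the members. The ratio of highest to lowest replicate in RPFs reached 78.6 for *Egr1* in KM_4A2cr and 15.4 for *Fos*, against 1.73 for *Ier3*. *Fosl1* peaked in replicate 3 in both lines and both kinds of library, and *Ier3* was lowest in replicate 2 in 3 of the 4 sets. Part of this spread belongs to single days. Without replicate 1 the median SD over members and lines was 0.48 in RPFs against 0.74 with all days, where all tested genes without replicate 1 had 0.41, and without replicate 4 it was 0.42 in total RNA against 0.63, where all tested genes had 0.28. These are the lowest member medians of each kind. In RPFs without replicate 4 members had 0.56 and all tested genes 0.33. Total RNA without replicate 1 gave 0.62 for members, near the value with all days, and 0.35 for all tested genes. Nothing beyond the day is given by the labels.

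**Figure D5:**
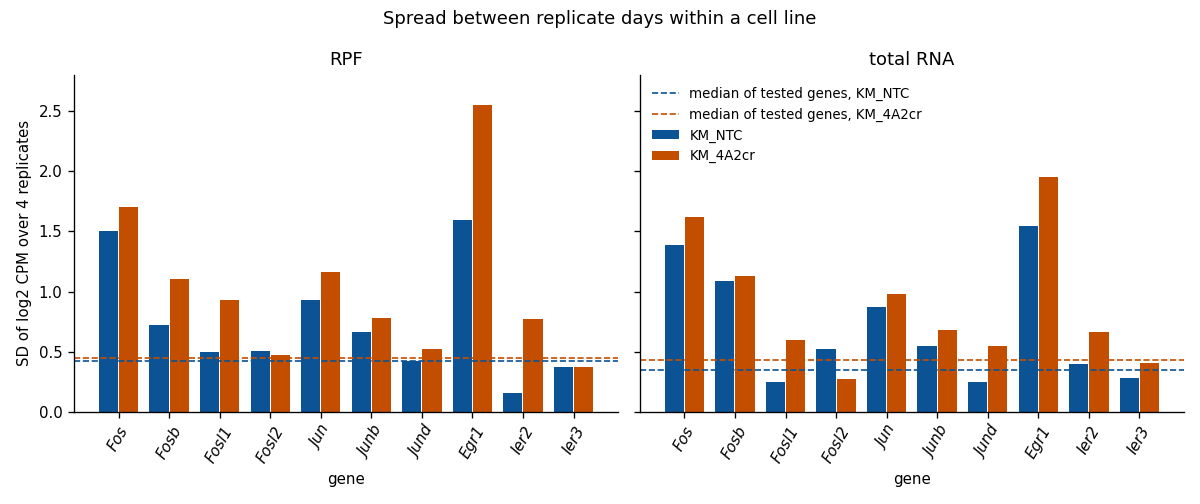
SD of log2 CPM over the 4 replicates of each line for RPFs and total RNA, with dashed lines at the median of all tested genes. *Fos* and *Egr1* stand at 1.39 or more in all 4 sets, against medians of 0.35 to 0.45.

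Other genes of the pathway were described from 4 lists. Of 18 tested genes upstream, among ELK factors, SRF, the MRTF coactivators and kinases, 0 were called in RPFs and 0 in total RNA by edgeR or DESeq2, with 3 in each at an unadjusted p under 0.05, and for TE 2 were higher and 1 lower, where 2.91% of all tested genes were called. DESeq2 called 1 of the 18 in TE, *Nab1*. *Elk4*, a SRF partner, rose in TE by 0.57 on the log2 scale (SE 0.16, edgeR adjusted p = 0.0893, DESeq2 adjusted p = 0.200), and *Nab1*, a corepressor of EGR proteins, by 0.52 (SE 0.13, edgeR adjusted p = 0.0502). *Elk4* TE was higher in 3 of 4 pairs and lower in pair 4, with a log2 difference of -0.35. *Mrtfa*, an SRF coactivator, fell in TE with a log2 fold change of -0.99 (SE 0.23, edgeR adjusted p = 0.0366), and DESeq2 gave it no adjusted p. Its RPF CPM was 25.3 ± 7.86 and 20.7 ± 5.71 (SD, n = 4) in KM_NTC and KM_4A2cr, whereas its total RNA CPM was 3.64 ± 0.613 and 5.75 ± 1.92. *Mrtfb* RPFs (log2 fold change -0.44, edgeR adjusted p = 0.101) and *Rps6ka5* total RNA (-0.44, adjusted p = 0.220) were each lower in 4 of 4 pairs without passing the threshold.

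Of 11 tested dimer partners and relatives of AP-1, 0 were called in RPFs or TE by edgeR or DESeq2, with 3 and 0 at an unadjusted p under 0.05, and 1 was called in total RNA, where 6.13% of all tested genes were. The small MAF proteins *Mafk* and *Maff* had RPF log2 fold changes of -0.41 (edgeR adjusted p = 0.110) and -0.56 (adjusted p = 0.152). *Jdp2*, a repressor that dimerises with JUN, had a total RNA log2 fold change of -0.34 (edgeR adjusted p = 0.228). The median of the list was -0.12 in RPFs and -0.13 in total RNA, beside -0.01 and 0.01 for all tested genes.

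Of 34 tested immediate early genes outside the 10, 2 rose in RPFs, 1 in total RNA and 2 in TE, and 0 fell, where 10.3%, 6.13% and 2.91% of all tested genes were called. DESeq2 called 2, 0 and 0. *Klf4*, a zinc finger factor of epithelial differentiation, rose in RPFs from 12.8 ± 4.04 to 19.6 ± 6.04 CPM (log2 fold change 0.63, SE 0.17, edgeR adjusted p = 0.0679) and in TE (0.79, SE 0.15, adjusted p = 0.0109). *Klf10*, induced by TGF-beta, rose in RPFs (0.57, SE 0.16, edgeR adjusted p = 0.0840) and in total RNA (0.50, SE 0.14, adjusted p = 0.0938), and both calls were lost with DESeq2 (adjusted p = 0.133 and 0.193), upper-quartile scaling and library size only. *Btg1*, an antiproliferative gene named after its value was seen, rose in TE (0.44, SE 0.13, edgeR adjusted p = 0.0893) but not with DESeq2 (adjusted p = 0.134). The *Btg1* call was also lost without replicate 4, and its TE log2 differences in pairs 1 to 4 were 0.13, 0.54, 0.06 and 1.08. *Sik1*, a kinase, had an RPF log2 fold change of -0.45 (edgeR adjusted p = 0.121), *Csrnp1* a total RNA value of -0.55 (adjusted p = 0.113) and *Zfp36l2*, which binds AU-rich elements, one of -0.33 (adjusted p = 0.187). The list's median was -0.09 in RPFs and 0.00 in total RNA, beside -0.01 and 0.01 for all tested genes.

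Of 25 tested classic AP-1 target genes, 5 rose in RPFs and 4 in total RNA, and 2 fell in TE, where 10.3%, 6.13% and 2.91% of all tested genes were called. DESeq2 called 5, 6 and 0. The list's median was 0.19 in RPFs and 0.27 in total RNA, beside -0.01 and 0.01 for all tested genes. Of the 25 genes, 16 lay above 0 in RPFs and 18 in total RNA, so the list did not move as a block. Named after their values were seen, *Mmp9*, *Mmp10*, *Mmp13* and *Mmp3* had RPF log2 fold changes of -0.61, -0.47, -0.38 and -0.22. *Mmp14* had 0.22, and none of these matrix metalloproteinases was called. *Lamb3*, a laminin chain of epithelial basement membranes, rose in RPFs from 2070 ± 1140 to 3720 ± 1560 CPM (log2 fold change 0.91, SE 0.14, edgeR adjusted p = 0.0119) and in total RNA (1.02, SE 0.17, adjusted p = 0.0127). *Itga5*, the alpha chain of a fibronectin receptor, rose in RPFs (0.75, SE 0.16, edgeR adjusted p = 0.0381) and in total RNA (0.88, SE 0.15, adjusted p = 0.0127).

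In RPFs and in total RNA alike, all 4 pairs had more *Lamb3* and *Itga5* in KM_4A2cr. *Vegfa* (0.57, edgeR adjusted p = 0.0692) and *Tgfb1* (0.55, adjusted p = 0.0659), named after their values were seen, also rose in RPFs. The metallothionein *Mt2* rose in total RNA (log2 fold change 0.85, SE 0.18, edgeR adjusted p = 0.0322) and fell in TE (-0.50, adjusted p = 0.0893). Its neighbour *Mt1*, also named after its value was seen, fell in TE (-0.53, adjusted p = 0.0582), and reads of these 2 similar genes may be split between them. *Mt1* and *Mt2* TE were each lower in 3 of 4 pairs, with log2 differences of 0.37 and 0.43 in pair 4. Many of these targets also respond to other transcription factors. The called values of the genes named from these 4 lists kept their direction in the alternative analyses, and each lost its call without replicate 2 and also without replicate 3, as in *Lamb3* RPFs (adjusted p = 0.112 and 0.194), except *Klf4* TE, which lost it without replicate 1 (0.101).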

How the data were processed

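Footprints and paired cytoplasmic RNA of KM_NTC and KM_4A2cr were analysed, 4 replicates of each line. The authors deposited RPF values as whole-number counts per transcript (Cutadapt 1.18, BBmap, UMI-tools 1.0.1, SAMtools 1.9), restricted to the most abundant GENCODE transcript of a gene and to coding positions after codon 20 and before the last 10. RSEM 1.3.3 with Bowtie2 2.3.5.1 gave the expected counts and TPM per isoform that the authors deposited for total RNA. Gene identity of an RPF transcript came from the isoform tables, and absence from a library counted as 0. Expected counts were summed by gene, then rounded. *Fosb*, with 13 to 57 RPF counts per library, is the least precise member. Scaling within each kind of library leaves no trace of a change in all mRNA or all footprints.

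Tests used edgeR 4.0.16 (R 4.3.3, limma 3.58.1) with filterByExpr, TMM factors and the quasi-likelihood F test. Terms were the line and the replicate number, and p was Benjamini-Hochberg adjusted over all tested genes (threshold 0.1). TE was the interaction of line and kind of library in 1 model with terms for lysate and for replicate within kind. The study's methods name DESeq2 without model terms. The replicate term follows the series description, in which each replicate is a separate day, and deviations of same-numbered libraries from their line means correlated at 0.575 to 0.782 across genes in RPFs and 0.611 to 0.756 in total RNA. Pair differences and SDs are of log2 CPM with a prior count of 2. Alternatives were no replicate term, DESeq2 1.42.0, 3 other scalings, 2 other filters, a threshold of 0.05, each replicate left out, and the RPF isoform alone for total RNA. Those for the spread between days and for pathway genes were added after seeing the data. The scripts were tested on simulated data with genes changed by a log2 value of 1. Of these genes, 92.8% were called in RPFs, 92% in total RNA and 57.2% in TE. Unchanged genes made up 13.5%, 10.7% and 7.5% of the calls.

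The 10 members, the 4 pathway lists and the marker lists were chosen with earlier results of these data known. Named from each pathway list are the 3 genes with the smallest RPF p and the 3 with the smallest total RNA p, apart from items that are not reported here. The lists share *Maff*, *Srf* and *Creb1*, and *Rps6ka4* was not tested. Promoters are from RefSeq for GRCm38.p6.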

Additional observations from a re-analysis of the deposited data

Results flagged for a closer look

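In 70 sets of 4 values, namely the CPM of a line or the 4 pair differences of a member, 7 held a value whose gap to its nearest neighbour took up more of the whole range than Dixon's 95% critical value for 4 values allows. For normally distributed values chance alone gives about 1 in 20 such sets, and sets of the same gene are not independent. The CPM were checked without a log and are skewed for several members, so that rate need not hold for them. The number of flagged sets is therefore not read as an excess.

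Of the 7, 4 were the highest value of KM_4A2cr in replicate 4. *Egr1* RPF CPM was 408 there, and its total RNA CPM was 186. *Jun* RPF CPM was 34.5 and its total RNA CPM was 70.1. A further one was the highest KM_NTC value in the same replicate, 31.9 RPF CPM for *Fosl2*. Among pair differences, *Egr1* RPFs stood apart in pair 4 with a log2 difference of 1.91, and *Fosl1* RPFs in pair 1 with -0.85. Replicate 4 is also where the summed immune markers were highest and the RPF counts fewest, and the part of either in these values was not tested.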

How the results depend on the processing

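Counts of called genes depended most on the replicate term and on single days. The 1062 RPF calls became 0 with no replicate block and 1619 with library size only, and 438 passed a threshold of 0.05. The 667 total RNA calls became 0 with no replicate block, 1130 with library size only, 1268 with no filter on low counts and 321 at a threshold of 0.05. The 291 TE calls became 0 with no replicate block, 139 with DESeq2, where 5423 genes had no adjusted p, 132 with library size only, 475 with no filter and 76 at a threshold of 0.05. Leaving out 1 replicate gave 32 to 3469 RPF calls, 63 to 3260 total RNA calls and 10 to 673 TE calls, lowest without replicate 3 (TE: replicate 1) and highest without replicate 4. Higher calls were 63.9% in RPFs and 70.9% in total RNA, against 29.8% and 23.2% with library size only, which moves the median of all genes by -0.13 and -0.16, and 53.5% and 60.1% with upper-quartile scaling. For TE the share was 64.3%, and 75.5% with DESeq2 and 78.8% with library size only. The median SD between days ran from 0.48 to 0.91 in RPFs (main value 0.74) and from 0.42 to 0.76 in total RNA (0.63) when 1 replicate was left out.

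Of 367 member values under alternatives, 316 kept direction and side of the threshold, 23 lost and 7 gained a call, and 21 changed sign, all in values not called with all replicates. Signs changed in RPFs for *Fosl1* (0.01 with no replicate block, -0.19 to 0.13 with 1 replicate left out), *Jun* (-0.35 to 0.17 with 1 replicate left out), *Junb* (-0.01 with upper-quartile scaling, -0.09 with library size only, -0.06 to 0.12 with 1 replicate left out) and *Egr1* (1.01 with no replicate block, -0.78 to 0.29 with 1 replicate left out, lowest without replicate 4). They also changed in RPFs for *Ier2* (-0.05 with library size only, -0.20 to 0.26 with 1 replicate left out) and *Ier3* (-0.03 with upper-quartile scaling, -0.12 with library size only, -0.04 to 0.11 with 1 replicate left out). In total RNA they changed for *Fosl2* (-0.14 to 0.07 with 1 replicate left out) and *Egr1* (-0.08 with library size only, -0.51 to 0.44 with 1 replicate left out), and in TE for *Egr1* (-0.03 with DESeq2, -0.23 to 0.18 with 1 replicate left out). The causes were not tested. *Fosb* could not be fitted with at least 30 counts in 4 libraries for RPFs and TE, nor with the RPF isoform alone.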
